A study of Mus musculus with 10 samples.

Results

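The genes described here code for ion pumps, cation-chloride cotransporters and channels that set the potassium, sodium, calcium and chloride gradients and the volume of brain cells. All transcripts annotated to 7 genes were taken: Atp1b1, Atp1b3, Atp2b1, Slc12a2, Slc12a4, Kcnj10 and Lrrc8a. The counts hold 7 transcripts of 5 of these genes, of 22534 transcripts and 13184 genes listed in all. Transcripts of Atp1b3 and Atp2b1 were not analysed here. A transcript was called measured when at least 2 cultures each gave it an RPKM (reads scaled by feature length and library size) of 10 or more in RNAseq and on the CDS in RF. By this rule 4 of the 7 transcripts were measured, of 7262 in the whole series: Atp1b1, Kcnj10 and both transcripts of Slc12a4.

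Cortical cells of newborn (P0) FVB pups were grown for 7 days in dishes that held both neurons and glia. The untreated group had 3 cultures (1, 2 and 3), and the KCl group had 2 cultures (4 and 5) that were held in 55 mM KCl for 3 h, which depolarizes the cells. Both groups received cycloheximide, a drug that stalls ribosomes, before lysis. From each lysate an RNAseq library and a ribosome footprinting (RF) library were made, and the study asked how depolarization alters mRNA abundance and translation. RF reads are the mRNA fragments that a ribosome protects from nuclease, and translation efficiency (TE) is the ratio of RF on the coding sequence (CDS) to RNAseq. The sources do not say whether the cultures came from separate litters, so the p-values measure the spread between these cultures only.

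The sodium pump exports sodium and imports potassium, and its beta subunit, which Atp1b1 encodes, carries the catalytic alpha subunit to the membrane. Kcnj10 (Kir4.1) is the inward rectifier through which astrocytes take up potassium that neurons release. Slc12a2 (NKCC1) brings sodium, potassium and chloride into the cell, Slc12a4 (KCC1) lets potassium and chloride out, and Lrrc8a is the obligatory subunit of the volume-regulated anion channel that opens when cells swell.

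The start codon divides the 5′UTR reads from the CDS reads on which RF and TE rest, and the bases around it are given for the transcripts that the results turn on, with the start codon in capitals.
Atp1b1: tgagcagacaccATGgccc
Slc12a4: caagcgcgcgcgATGcctc
Kcnj10: cttcgagccaagATGacgt
Lrrc8a: cagggttaaaccATGattc
These starts lie on GRCm38 at chr1:164457855-164457857 on the minus strand (Atp1b1), chr8:105966037-105966039 on the minus strand (Slc12a4), chr1:172368921-172368923 on the plus strand (Kcnj10) and chr2:30255176-30255178 on the plus strand (Lrrc8a). All 4 have A or G at the third base before the start codon, as did 86.0% of 7111 measured transcripts whose 5′UTR filled the window. G directly after the start codon was found in Atp1b1 alone of these 4, and in 49.5% of those transcripts. No ATG was found in the 5′UTR of Atp1b1 (498 nt), Kcnj10 (242 nt) or the leading Slc12a4 transcript (58 nt), whereas 51.1% of the transcripts held at least 1. The 5′UTR of the leading Lrrc8a transcript (201 nt) held 2.

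The RNAseq libraries held 3056286 to 3629959 counted reads each, and the RF libraries 1463654 to 7719915. The shallowest RF libraries were those of untreated culture 3 and KCl culture 4. As a check of the labelled tissue, 9 of 10 astrocyte markers were listed and all 9 were measured, with a summed normalized RNAseq CPM (counts scaled to library size) of 13366 to 14186 in untreated cultures. Of 10 neuronal markers 9 were listed and 4 were measured, and the sums over all 9 listed were 547 to 837 in untreated cultures. No listed marker of either cell type was at 0. In such mixed cultures, fewer cells of a type and less RNA per cell cannot be told apart.

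The members spanned a wide range of levels in untreated cultures. On the RNAseq scale per length, Atp1b1 was highest at 231 ± 25.8 RPKM (SD, n = 3), followed by Kcnj10 at 84.2 ± 3.12, Slc12a4 at 15.7 ± 1.68 and Slc12a2 at 5.48 ± 1.12. None of these ranges touched, and Lrrc8a, whose reads covered its 3′UTR alone, was left out of the order. Atp1b1 stood at percentile 97.6 of the measured transcripts, and the median measured transcript had 21.5 RPKM. On the CDS footprint scale Atp1b1 had 816 ± 22.7 RPKM (percentile 99.1) and Kcnj10 had 272 ± 18.1 (percentile 95.5). Slc12a2 and Slc12a4 could not be separated there, with 24.6 to 30.8 and 21.9 to 25.1 RPKM. Although Slc12a2 had the lowest mRNA level, its TE was the highest of the members at 5.31 ± 1.48, a value whose range overlapped that of Atp1b1 (3.55 ± 0.30). Atp1b1 also overlapped Kcnj10 (3.22 ± 0.12), and Slc12a4 lay below all of them at 1.52 ± 0.27. The plot of the leading transcripts by culture shows these levels without division by length.

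**Figure D1:**
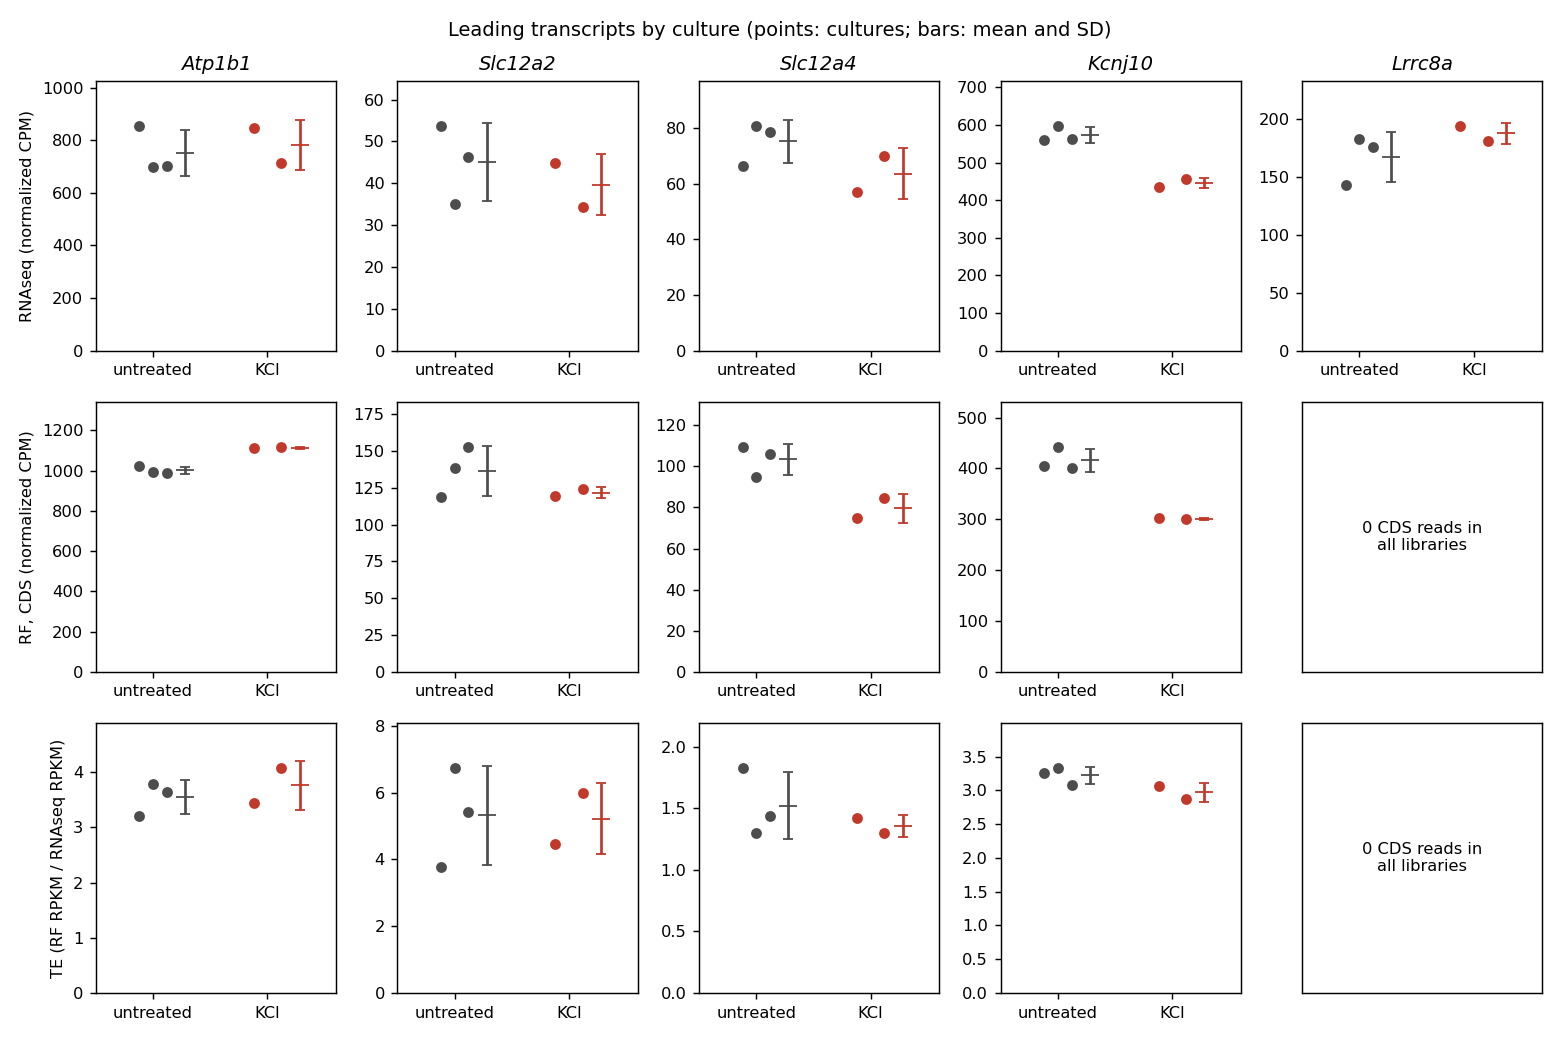
Normalized RNAseq CPM, normalized CDS footprint CPM and TE (linear axes from 0) of the leading transcript of each member gene; points are single cultures, bars the mean and SD of 3 untreated (grey) and 2 KCl (red) cultures. The KCl cultures lie below all untreated cultures in both assays for Kcnj10 and in RF for Slc12a4, and above them in RF for Atp1b1.

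Kcnj10 was the one member whose mRNA and footprints both fell with KCl. Its transcript ENSMUST00000056136 lies at chr1:172341210-172374085 on the plus strand, has 2 exons and carries a 3′UTR of 4028 nt. Normalized RNAseq CPM was 560, 597 and 563 in the untreated cultures and 436 and 456 with KCl. Both KCl cultures lay below all untreated cultures, as they did for 27.2% of measured transcripts. Kcnj10 mRNA thus fell by 0.36 on the log2 scale (SE 0.12, edgeR quasi-likelihood test, adjusted p = 0.0216). Of all measured transcripts 33.0% passed that test in RNAseq, 17.9% as higher and 15.1% as lower with KCl. CDS footprints were 405, 442 and 401 normalized CPM untreated and 302 and 299.7 with KCl, again all lower, a pattern that 31.0% of transcripts shared. The fall in RF was 0.47 on the log2 scale (SE 0.09, edgeR adjusted p = 0.000124), in a comparison where 40.9% of transcripts passed (20.8% higher and 20.1% lower). TE was 3.26, 3.33 and 3.09 untreated and 3.07 and 2.87 with KCl, a log2 difference of -0.10 (SE 0.17, edgeR adjusted p = 0.828). Both KCl values were below the untreated ones here too, as for 19.4% of transcripts, and 5.8% passed for TE (1.53% higher and 4.27% lower). The RNAseq call was lost without untreated culture 2 (log2 fold change -0.33, edgeR adjusted p = 0.0852), without KCl culture 4 (-0.34, 0.161) and without KCl culture 5 (-0.40, 0.0921). The RF call held under each alternative that was run.

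Summed over the list, markers of astrocytes, the cells in which Kcnj10 is best known, were lower in RNAseq, as Kcnj10 was, but higher in RF. Their summed RNAseq signal was 13366 to 14186 normalized CPM untreated and 11319 to 11597 with KCl, and 3 of 9 fell while none rose. Of all measured transcripts 15.1% fell and 17.9% rose in RNAseq. On the CDS footprint scale the sum was 18955 to 19634 untreated and 20531 to 20929 with KCl, and 4 of 9 rose while none fell. In RF 20.8% of all measured transcripts rose and 20.1% fell. Aqp4, the astrocyte water channel, fell by 0.52 in RNAseq (edgeR adjusted p = 0.00187) and rose by 0.36 in RF (adjusted p = 0.000428). The list was not uniform. Aldoc had a log2 fold change of 0.17 in RNAseq, and in RF Gfap had 0.01, Slc1a2 -0.06 and Fgfr3 -0.33, none of which passed. Of the endothelial and mesenchymal list 3 genes were measured, of which Col1a1 and Col3a1 fell and Dcn rose in RF. The endothelial markers Cldn5, Pecam1 and Flt1 were below the minimum, so the result does not cover endothelial cells. The list's footprint sum was 1481 to 2074 normalized CPM untreated and 930 to 1109 with KCl. The part of these markers in the results on the members was not tested.

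Kcnj10 also had footprints on the 5′UTR side of its start codon, a comparison that was chosen after the counts had been seen. Reads there were 223, 258 and 74 in untreated cultures and 25 and 42 with KCl. Scaled by the CDS library sizes they were 38.6, 52.4 and 69.3 normalized CPM untreated and 22.2 and 19.5 with KCl. The groups did not overlap, but how many transcripts share this pattern on the 5′UTR side was not counted. The fall was 1.34 on the log2 scale (SE 0.36, edgeR adjusted p = 0.0292). Of 4031 transcripts tested in this way 5.28% passed, 4.56% as higher and 0.719% as lower with KCl. Per nucleotide, the 5′UTR held 0.45, 0.56 and 0.81 times the footprints of the CDS untreated and 0.35 and 0.31 times with KCl. The test of that difference between regions gave -0.84 (SE 0.39, edgeR adjusted p = 0.399) where 0.372% of transcripts passed, so that the 5′UTR was not shown to fall by more than the CDS. The 5′UTR call was lost without untreated culture 1 (-1.54, edgeR adjusted p = 0.0545), without KCl culture 4 (-1.43, 0.246) and without KCl culture 5 (-1.24, 0.521). Of 110 measured transcripts with under 10 nt of annotated 5′UTR, 31.8% had footprints counted there, so that this region may take in reads at the start codon.

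**Figure D2:**
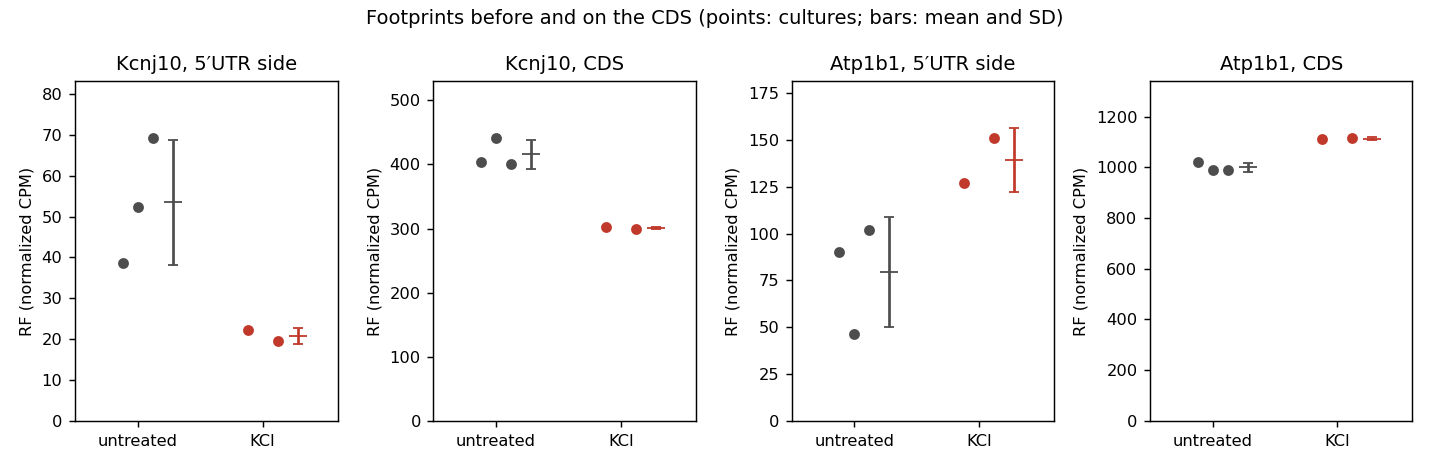
Normalized RF CPM (linear axes from 0) on the 5′UTR side of the start codon and on the CDS of Kcnj10 and Atp1b1, per culture, with the mean and SD of 3 untreated (grey) and 2 KCl (red) cultures. Kcnj10 lies lower with KCl in both regions and Atp1b1 higher in both, but only the 2 Kcnj10 differences passed the test.

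Most RNAseq reads of Kcnj10 came from outside its CDS: the 3′UTR held 83.6% to 86.5% of them in the 5 cultures and the CDS 10.7% to 12.5%. When RNAseq was restricted to the CDS, the log2 fold change was -0.34 and no longer passed (edgeR adjusted p = 0.2). Footprints on the 3′UTR numbered 0 to 9 per library.

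Atp1b1, the sodium pump subunit, was the most abundant member and did not pass any test at the main settings. Its transcript ENSMUST00000027863 lies at chr1:164437109-164458355 on the minus strand and has 6 exons. RNAseq was 854, 699 and 702 normalized CPM untreated and 848 and 713 with KCl, with overlapping groups and a log2 fold change of 0.05 (SE 0.13, edgeR adjusted p = 0.788). CDS footprints were 1021, 992 and 991 normalized CPM untreated and 1111 and 1117 with KCl. Both KCl cultures thus lay above the untreated ones in RF, as they did for 30.2% of measured transcripts. The log2 fold change of 0.15 (SE 0.08) missed the threshold (edgeR adjusted p = 0.111), although it passed with edgeR's filterByExpr (0.23, adjusted p = 0.0201) and with no filter beyond 1 read (0.22, adjusted p = 0.0273). TE was 3.21, 3.79 and 3.64 untreated and 3.45 and 4.07 with KCl, a log2 difference of 0.10 (SE 0.16, edgeR adjusted p = 0.826).

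On the 5′UTR side, Atp1b1 footprints were 90.0, 46.3 and 102 normalized CPM untreated and 127 and 151 with KCl. These groups did not overlap either, a pattern whose share over all transcripts was not counted for this region. The log2 fold change of 0.83 (SE 0.32) did not pass over all transcripts (edgeR adjusted p = 0.133), but it did without untreated culture 3 (1.03, adjusted p = 0.019). Per nucleotide the 5′UTR held 0.15 ± 0.05 (SD, n = 3) times the CDS footprints untreated and 0.23 ± 0.03 (SD, n = 2) times with KCl. The test of that difference between regions gave 0.74 (SE 0.38, edgeR adjusted p = 0.456), so that no shift between the regions was shown.

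Among the cotransporters, Slc12a4 had fewer footprints with KCl. Its leading transcript ENSMUST00000034370 lies at chr8:105943593-105966097 on the minus strand and has 24 exons. RNAseq was 66.5, 80.7 and 78.5 normalized CPM untreated and 57.1 and 70.0 with KCl, with overlapping groups (log2 fold change -0.24, SE 0.18, edgeR adjusted p = 0.317). CDS footprints were 109, 95.1 and 106 normalized CPM untreated and 74.7 and 84.4 with KCl. Both KCl cultures were below all untreated ones, as for 31.0% of measured transcripts. The fall of 0.36 (SE 0.14) passed the test (edgeR adjusted p = 0.0388), as 20.1% of transcripts did in this direction. TE was 1.82, 1.30 and 1.44 untreated and 1.42 and 1.30 with KCl (log2 difference -0.14, SE 0.25, edgeR adjusted p = 0.842).

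The RF call on Slc12a4 was lost with DESeq2 (log2 fold change -0.36, adjusted p = 0.111), and in edgeR without untreated culture 1 (-0.30, adjusted p = 0.135), without untreated culture 3 (-0.35, 0.065), without KCl culture 4 (-0.29, 0.242) and without KCl culture 5 (-0.47, 0.107). The reads behind it were 632, 468 and 113 untreated and 84 and 182 with KCl. The second transcript, ENSMUST00000116429, had the same RNAseq count in each library and CDS counts that differed by at most a few reads, since reads that fit both were kept for both. It is not independent evidence.

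Slc12a2, the inward cotransporter, was below the RNAseq minimum with 3.97 to 6.49 RPKM over all cultures, and its values come from a fit with no filter beyond 1 read. RNAseq reads were 138, 90 and 113 untreated and 109 and 94 with KCl, and CDS footprints were 686, 682 and 163 untreated and 134 and 268 with KCl. In normalized CPM, on the scale of the measured transcripts, the footprints were 119, 139 and 153 untreated and 119 and 124 with KCl, so the groups overlapped. In RPKM they were 24.6, 28.8 and 30.8 untreated and 23.0 and 23.7 with KCl and did not overlap, so the overlap depends on the scaling. How many transcripts share that pattern in RPKM was not counted. In normalized CPM both KCl cultures lay below all untreated ones for 31.0% of measured transcripts. The fit with no filter computed its own scaling, so its fold changes differ from those of the printed CPM. The log2 fold change was -0.13 (SE 0.21, edgeR adjusted p = 0.735) in RNAseq, -0.07 (SE 0.13, adjusted p = 0.754) in RF and 0.05 (SE 0.25, adjusted p = 1) in TE. In that fit 19.0% of 21950 transcripts passed for RNAseq, 25.9% of 20864 for RF and 1.76% of 22374 for TE.

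Lrrc8a, the volume-regulated channel subunit, could be followed by its 3′UTR alone. RNAseq reads on its leading transcript ENSMUST00000095078 (chr2:30237722-30263790, plus strand, 4 exons) were 368, 470 and 431 untreated and 473 and 496 with KCl, and all of them lay in the 3′UTR. The second transcript, ENSMUST00000113654, had the same counts save 1 read in untreated culture 1. No library of either assay had a read on the CDS of either transcript, which allows up to 3 reads, or 0.389 to 2.05 CPM in the RF libraries. This limit covers counting error only. The authors removed degenerate sequence from the transcriptome before mapping, and whether that touched this CDS was not tested, so that the absence of CDS reads says nothing of translation and no TE is given. In normalized CPM, on the scale of the measured transcripts, RNAseq was 143, 183 and 176 untreated and 194 and 182 with KCl. The fit with no filter beyond 1 read, which computed its own scaling, gave a log2 fold change of 0.22 (SE 0.15, edgeR adjusted p = 0.328).

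**Figure D3:**
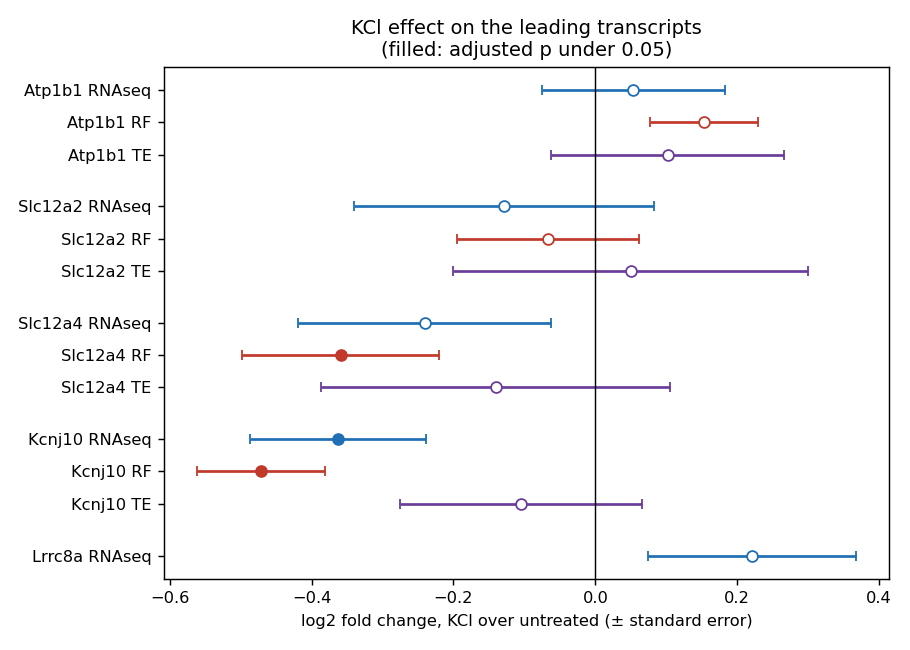
Log2 fold change of KCl over untreated cultures with its standard error for RNAseq (blue), RF (red) and TE (purple) of the leading transcripts; filled points have an adjusted p under 0.05 in edgeR. The 3 filled points are Kcnj10 RNAseq (-0.36), Kcnj10 RF (-0.47) and Slc12a4 RF (-0.36). Slc12a2 and Lrrc8a come from the fit with no filter beyond 1 read.

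Against all 7262 measured transcripts, whose quartiles of log2 fold change were -0.30 and 0.28 in RNAseq, Kcnj10 lay below the lower quartile and Atp1b1 and Slc12a4 between both. In RF the quartiles were -0.35 and 0.29, and Kcnj10 and Slc12a4 lay below the lower one.

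Of 77 related genes chosen for these pathways, 65 were listed and 29 were measured. In RNAseq 3 rose and 3 fell, against 17.9% and 15.1% of all measured transcripts. In RF 2 rose and 9 fell, against 20.8% and 20.1%, and in TE none rose and 2 fell, against 1.53% and 4.27% (edgeR, adjusted over all measured transcripts). The median log2 fold change of the 29 was -0.11 in RNAseq and 0.01 in RF. The RF counts of genes that rose and fell were 0 and 5 without KCl culture 5, 7 and 8 with no filter beyond 1 read, and 0 and 11 with library totals, where both rises lost their call.

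Of the sodium pump list 8 genes were measured. Nkain4, which codes for a protein that interacts with the pump, rose by 0.41 in RNAseq and by 0.43 in RF (edgeR adjusted p = 0.0499 and 0.0144). Its RNAseq call was lost without untreated culture 2 (0.33, adjusted p = 0.179) and without KCl culture 5 (0.24, 0.47). The RNAseq call was also lost with DESeq2 (adjusted p = 0.0929), library totals (0.112), reads summed per gene (0.0718) and CDS reads alone (0.0546). The RF call on Nkain4 was lost with library totals (0.33, edgeR adjusted p = 0.0578), without KCl culture 4 (0.37, 0.127) and without KCl culture 5 (0.49, 0.0762). The beta subunit Atp1b2 did not pass in any assay, with an RF log2 fold change of -0.10 (edgeR adjusted p = 0.351). Of 3 measured calcium pumps, Atp2c1, a Golgi pump, fell by 0.45 in RF (edgeR adjusted p = 0.01), a call that was lost without KCl culture 5 (-0.38, 0.183).

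Of the cotransporters and their kinases 3 genes were measured. Wnk1, a chloride-sensitive kinase upstream of both cotransporter types, fell by 0.56 in RF (SE 0.10, edgeR adjusted p = 7.3e-05) with an RNAseq log2 fold change of 0.02, and its TE fell by 0.57 (adjusted p = 0.0243). The TE call did not survive leaving out untreated culture 2 (-0.47, edgeR adjusted p = 0.103), untreated culture 3 (-0.47, 0.204), KCl culture 4 (-0.57, 0.268) or KCl culture 5 (-0.56, 0.398). It was also lost with DESeq2 (adjusted p = 0.145), filterByExpr (0.0588), no filter beyond 1 read (0.0721) and RNAseq reads on the CDS alone (0.109), so 8 of 14 alternatives ended it. Cab39, a scaffold protein of the kinases that act on these cotransporters, rose by 0.56 in RF (edgeR adjusted p = 0.019), which was lost without untreated culture 1 (0.40, 0.111), without KCl culture 5 (0.37, 0.392), with DESeq2 (0.56, 0.0855) and with library totals (0.46, 0.051). Of the 14 inward rectifier and leak potassium channels chosen, 2 were measured, and both fell in RF, where 20.1% of all measured transcripts fell. The rest were below the minimum or not analysed. Among those below the minimum, RF levels with KCl were higher for some and lower for others. Kcnk1 fell by 0.78 in RNAseq and 0.85 in RF (edgeR adjusted p = 3.89e-05 and 1.42e-05), although its RNAseq reads on the CDS alone gave -0.37 (adjusted p = 0.183). Kcnk2 fell by 0.72 in RF (adjusted p = 0.0233), a call lost without untreated culture 2 (-0.60, 0.0533), without KCl culture 5 (-0.44, 0.421) and with DESeq2 (-0.68, 0.128).

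The volume-regulated and other chloride channels held 5 of the 9 falls in RF, among 10 measured genes, where 20.1% of all measured transcripts fell. One of the 5, Ano6, lost its call in 7 of 11 alternatives. Lrrc8d, a partner subunit of Lrrc8a, had CDS footprint RPKM of 15.3, 17.5 and 13.5 untreated and 6.03 and 4.60 with KCl. Both KCl cultures were far below the untreated range, although the KCl values rest on 25 and 37 reads. In normalized CPM they also lay below all untreated ones, as for 31.0% of measured transcripts. Lrrc8d fell by 0.91 in RNAseq and by 1.52 in RF (SE 0.16 and 0.20, edgeR adjusted p = 2.74e-05 and 7.94e-07). Its TE difference of -0.54 did not pass (adjusted p = 0.338). Lrrc8c, another partner subunit, had an RF log2 fold change of 0.01 (edgeR adjusted p = 0.944).

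Ttyh3, of the tweety family of chloride channel-like proteins, had CDS footprint RPKM of 128, 115 and 136 untreated and 55.4 and 56.3 with KCl. Its RNAseq RPKM was 78.9, 101 and 95.1 untreated and 72.8 and 82.9 with KCl, with overlapping groups. It fell by 1.07 in RF and by 0.93 in TE (SE 0.11 and 0.18, edgeR adjusted p = 1.75e-08 and 2.95e-05), and the TE call was lost without KCl culture 5 (-0.85, 0.0739). Its relatives also fell in RF, Ttyh1 by 0.41 (edgeR adjusted p = 0.000624) and Ttyh2 by 0.46 (adjusted p = 0.00909), the latter with a fall of 0.85 in RNAseq (-0.45 and adjusted p = 0.146 on the CDS alone). The RF call on Ttyh2 was lost without KCl culture 5 (-0.28, 0.319). Ano6, a scramblase and ion channel, fell by 0.44 in RF (edgeR adjusted p = 0.0292), which was lost without untreated culture 2 (-0.24, 0.175), without KCl culture 4 (-0.47, 0.0877) and without KCl culture 5 (-0.39, 0.245). DESeq2 (adjusted p = 0.098), filterByExpr (0.0614), no filter beyond 1 read (0.0514) and reads summed per gene (0.0628) also ended that call. Clcn6, a chloride-proton exchanger of late endosomes, rose by 0.88 in RNAseq (edgeR adjusted p = 1.84e-05) with an RF log2 fold change of 0.28 (adjusted p = 0.142). None of 3 measured acid-base transporters passed in any assay.

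**Figure D4:**
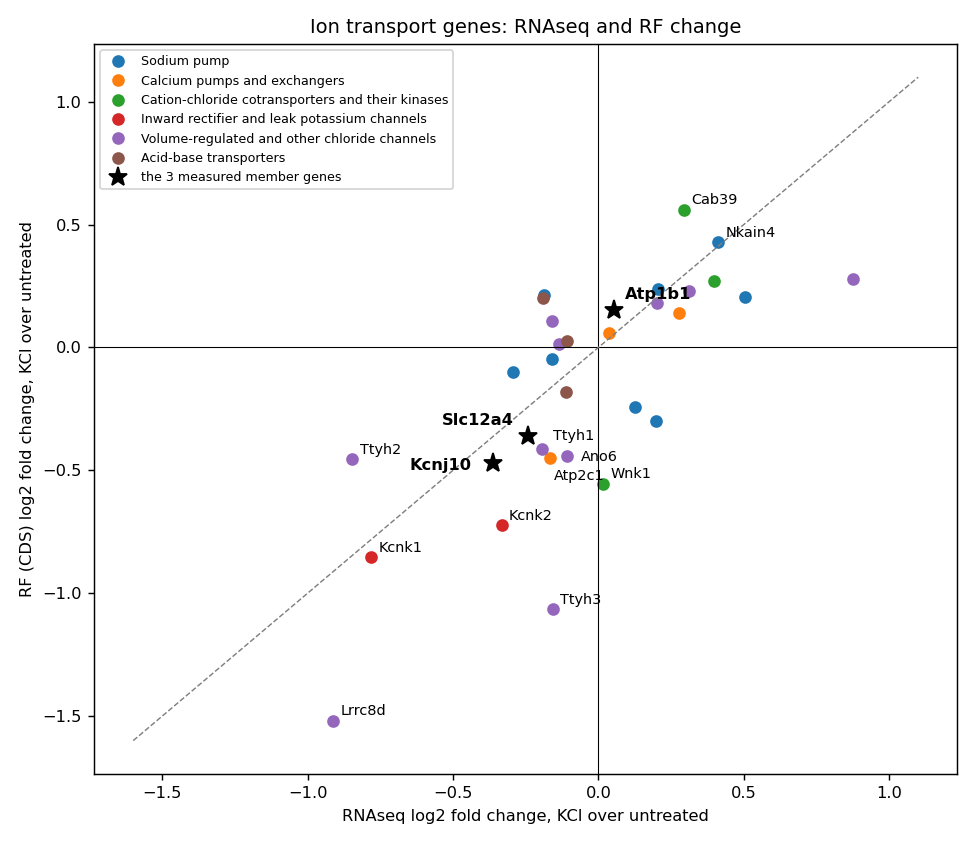
Log2 fold change of KCl over untreated cultures in RNAseq (horizontal) and RF (vertical) for the 29 measured related genes, coloured by list, and the 3 measured member genes (stars); names are given for genes with an adjusted p under 0.05 in RF or TE, and the dashed line marks equal change. Ttyh3 lies far below the line at -0.16 in RNAseq and -1.07 in RF, and Lrrc8d is lowest at -0.91 and -1.52.

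The genes whose values across the 10 libraries were most like those of each measured member were ranked by Pearson's r on log2 normalized CPM, centred within each assay, over 4369 genes. For Kcnj10 these were S1pr3 (0.99), Pold2 (0.98) and Rasa3 (0.98), for Slc12a4 they included Samm50 (0.96) and Ndufb9 (0.96), and for Atp1b1 Gprasp1 (0.96), Fbxo11 (0.93) and Mob1a (0.92). The points share their treatment group and, in pairs, their lysate, so these values are a description.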

How the data were processed

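RNAseq and RF libraries of 3 untreated and 2 KCl cultures were used, grouped by their labels. The authors used Trimmomatic 0.32 for trimming and STAR 2.3.1z8 to find rRNA, aligned the rest with Bowtie2 2.2.2 to the mm10 transcriptome of Ensembl without degenerate sequence, kept multi-mapped reads and deposited raw counts per transcript region from BEDTools 2.20.1. A further KCl replicate had been removed for its small library and was not analysed here. Region letters were read as 5′UTR, CDS and 3′UTR from read shares and lengths, and 1 region remained unnamed. The positions around start and stop codons that the study left out for TE could not be left out here. GENCODE M21 (GRCm38) gave gene names for 22172 transcripts (98.4%), lengths and sequences.

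RNAseq counts on all regions and RF counts on the CDS were tested with edgeR 4.0.16 (quasi-likelihood, TMM within each assay, R 4.3.3), with Benjamini-Hochberg adjustment over all 7262 measured transcripts and a threshold of 0.05. For TE, the assay-by-treatment interaction was tested in 1 model of both assays that blocked on the culture, because both libraries of a culture came from 1 lysate. Deviations of same-numbered libraries correlated at -0.07 to 0.06 over transcripts. The SE is the absolute log2 fold change over the square root of F, an approximation. An exact permutation of 3 against 2 cultures cannot give a p below 0.1 and was not used. The fits were run on simulated counts with larger changes than the members had in RNAseq, RF or TE. That run does not show how well changes as small as theirs are found. Alternatives were DESeq2 1.42.0, library totals, other filters, gene sums, CDS reads alone, 1 fit of 10 libraries, TMM over 10 libraries, no block and each culture left out. 5′UTR footprints were tested where at least 2 RF libraries had at least 10 reads. The leading transcript of a gene is the one with most RNAseq reads on average. Related genes were named with values where they passed in any test, except some genes that are not reported here, and others beside them (Atp1b2, Lrrc8c) were named after their values were seen. Members and lists were chosen with earlier results of these data known.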

Additional observations from a re-analysis of the deposited data

How the results depend on the processing

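The RF fall of Kcnj10 kept its call under all alternatives run. Its RNAseq fall kept its direction and lost its call with filterByExpr (-0.30), with no filter beyond 1 read (-0.31) and on the CDS alone (-0.34), and lay between -0.40 and -0.33 when single cultures were omitted. The RF fall of Slc12a4 lost its call with DESeq2 (-0.36), filterByExpr (-0.29), no filter (-0.29) and all 10 libraries in 1 fit (-0.36), with a range of -0.47 to -0.29. Atp1b1 passed in RF with filterByExpr (0.23) and no filter (0.22). Its RNAseq value turned to -0.025 with library totals and lay between -0.083 and 0.17, and its TE between -0.029 and 0.24. TE of Slc12a4 lay between -0.27 and 0.0055, and that of its second transcript between -0.25 and 0.023, with 0.014 on the CDS alone. With 1 culture left out, 5′UTR footprints, chosen after seeing the data, ranged from -1.54 to -1.14 for Kcnj10 and from 0.55 to 1.03 for Atp1b1, and all calls there from 14 to 499 (213 in the full set). The filter alternatives change the features tested and also recompute the scaling. With filterByExpr, RF was 0.23 for Atp1b1, -0.40 for Kcnj10 and -0.29 for Slc12a4, each above its value at the main settings. With at least 100 reads in every library it was 0.039 for Atp1b1 and -0.58 for Kcnj10, both below. The causes of the changed calls were not tested.

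Calls over all transcripts numbered 2395 in RNAseq, 2971 in RF and 421 in TE. With filterByExpr they were 3918 in RNAseq and 5286 in RF, and with no filter 4166 and 5412. With at least 100 reads in every library, which leaves out Slc12a4, they were 734, 1085 and 88, and with reads summed per gene 1427, 1671 and 238. RNAseq on the CDS alone gave 1532 and TE 266, and DESeq2 gave 174 for TE. Without KCl culture 5 the count was 1698 in RF and 70 in TE, and without KCl culture 4 it was 143 in TE. The left-out ranges were 1638 to 2637 in RNAseq, 1698 to 3233 in RF and 70 to 547 in TE. With library totals, which shifted RF log2 fold changes by a median of -0.10, the split of higher and lower calls was 1098 and 1483 in RNAseq (1300 and 1095 with TMM) and 1166 and 1941 in RF (1511 and 1460). Without the replicate block, TE had 420 calls, and the paired fit and the unpaired one gave the members the same calls. The RF depth of untreated culture 3 and KCl culture 4 leaves Kcnj10, Slc12a2 and Slc12a4 with 84 to 428 CDS reads there.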
